A study of Mus musculus with 3 samples.

Results

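T cells were a small group among the lavage cells: 664 of 42888 kept cells, from 3 libraries. A cell counted as a T cell when 200 or more genes were detected in it, no more than 20% of its UMIs (unique molecular identifiers, the tags that count RNA molecules) were mitochondrial and Lyz2, the lysozyme gene of macrophages and monocytes, made up less than 0.5% of its UMIs. It also had to hold at least 2 UMIs summed over Cd3d, Cd3e, Cd3g, Trac and Trbc2. These encode CD3 chains, which carry the signal of the T cell receptor, and constant regions of the receptor itself. Cells with more than 1 UMI over Ccr7, Fscn1 and Ccl22, or with any Ccl22, were left out because these genes mark migratory dendritic cells. Cells with a UMI of the B cell gene Cd79a or the dendritic cell gene Xcr1 were left out too. T cells were thus selected on measured transcripts, and the levels of those genes describe the choice and are not a result.

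T cells recognise antigen through a receptor built of α and β chains, or of γ and δ chains. CD4 T cells respond to peptides on MHC class II and help or restrain other cells, and CD8 T cells respond to peptides on MHC class I and can kill target cells. In the airways and alveoli both kinds include recirculating cells and long-lived resident memory cells.

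The study profiled bronchoalveolar lavage cells of mice by droplet single-cell RNA sequencing of 3′ transcript ends. All mice had received bleomycin, a drug that injures the lung and leads to fibrosis, by the airway, and were sampled after 14 days. Strain, age, sex, the dose of GW5074 and the number of mice are not given in the sources used here. The 3 groups were wild-type (WT) mice given GW5074, a small-molecule kinase inhibitor, Clec7a knockout (KO) mice under DMSO, and WT mice under DMSO, the vehicle. Clec7a encodes Dectin-1, a receptor for β-glucans, and the exons removed in the KO mice were not stated. The lavage of each group was pooled and sorted by flow cytometry for cells with CD11b or CD11c, integrin chains borne mainly by myeloid cells, so T cells in these libraries are those that passed a myeloid gate. With 1 library per group, a difference between groups cannot be told apart from one between pools, sorts or runs. No p-value was therefore computed between libraries. Intervals are given at the 95% level and reflect counting error alone.

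The 177 T cells of the GW5074 library held 177504 UMIs, the 218 of the KO library 281840 and the 269 of the WT DMSO library 422460. Their median depth was 793, 1091.5 and 1314 UMIs per cell, in the same order, against 2289, 2968 and 2475 UMIs in the other kept cells. The GW5074 T cells were thus the shallowest and the WT DMSO T cells the deepest. Ribosomal protein genes took a median of 21.2%, 27.0% and 21.1% of T cell UMIs, and mitochondrial genes 1.67%, 1.60% and 1.29%. The libraries shared 119, 154 and 80 cell barcodes in pairs, and no barcode was a T cell in more than 1 library. No doublet caller was used, and results without the tenth of T cells with the most UMIs stand in for one. Clec7a was at 649 CPM (counts per 1000000 UMIs of the summed cells) in the other kept cells of the GW5074 library, 10.7 CPM in those of the KO library and 425 CPM in those of the WT DMSO library. In T cells it had 21 UMIs with GW5074, 0 UMIs in the KO library, which allows up to 10.6 CPM, and 32 UMIs in the WT DMSO library.

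Genes of the T cell programme that the choice did not use were high in the chosen cells. Skap1, an adaptor of T cell receptor signalling, stood at 1538 CPM in GW5074, 1302 CPM in KO and 1167 CPM in WT DMSO T cells, against 13.7, 12.5 and 14.95 CPM in the other kept cells. At least 1 Skap1 UMI was seen in 504 of 664 T cells (75.9%). After every cell was thinned to 500 UMIs, Skap1 was found in 61.0% of GW5074, 46.8% of KO and 46.5% of WT DMSO T cells, and in 0 of 53, 0 of 36 and 1 of 254 B cells of the same libraries. Lck, the kinase that starts receptor signalling, was at 304, 355 and 350 CPM in T cells and at 4.13, 3.50 and 4.60 CPM in the other cells. Themis, which tunes that signal, was at 372, 522 and 426 CPM in T cells, and Bcl11b, a transcription factor of T cell commitment, at 411, 334 and 516 CPM. The genes with the highest ratio over the other kept cells in all 3 libraries also included Cd6, Cd5 and Cd28, which act at the T cell surface, and Cxcr6, a chemokine receptor of resident T cells. Skap1 is the 1 marker of the label that the choice of cells did not use, and it was high in all 3 libraries. Genes of natural killer cells were present at low levels. Their list of 11 genes, which holds Gzma and the myeloid genes Tyrobp and Fcer1g too, summed to 1155 CPM with GW5074, 671 CPM in KO and 833 CPM in WT DMSO T cells. Most Gzma UMIs of the GW5074 T cells were in 1 cell, and that cell weighs on the GW5074 sum. Tyrobp was at 332, 298 and 447 CPM, against 2765, 2849 and 2536 CPM in the other kept cells. Klre1, a receptor chain of natural killer and CD8 T cells, had 12, 7 and 13 UMIs, and Ncr1, a receptor of natural killer cells, had a UMI in 1 of 664 cells.

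The genes of the sorting gate were low in T cells. Itgam, which encodes CD11b, was at 39.4 CPM in GW5074, 14.2 CPM in KO and 52.1 CPM in WT DMSO T cells, against 89.2, 64.0 and 140.1 CPM in the other kept cells. Itgax, which encodes CD11c, was at 90.1, 28.4 and 61.5 CPM, against 301, 238 and 182 CPM. Transcripts of other cells were present as well. Lyz2 was at 1369, 1107 and 665 CPM in T cells after the limit on it, against 21181, 26338 and 11416 CPM in the other kept cells. B cells, which should lack Lyz2, served as a measure of transcripts from outside. They met the same quality limits and the same Lyz2 limit of 0.5%, with at least 2 UMIs over Cd79a, Cd79b and Ms4a1. Their Lyz2 level was 1361 CPM with GW5074, 1290.0 CPM in KO and 648 CPM in WT DMSO, close to that of the T cells of each library. The shared limit bounds the Lyz2 level of both kinds of cell, so this closeness is a description.

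**Figure D1:**
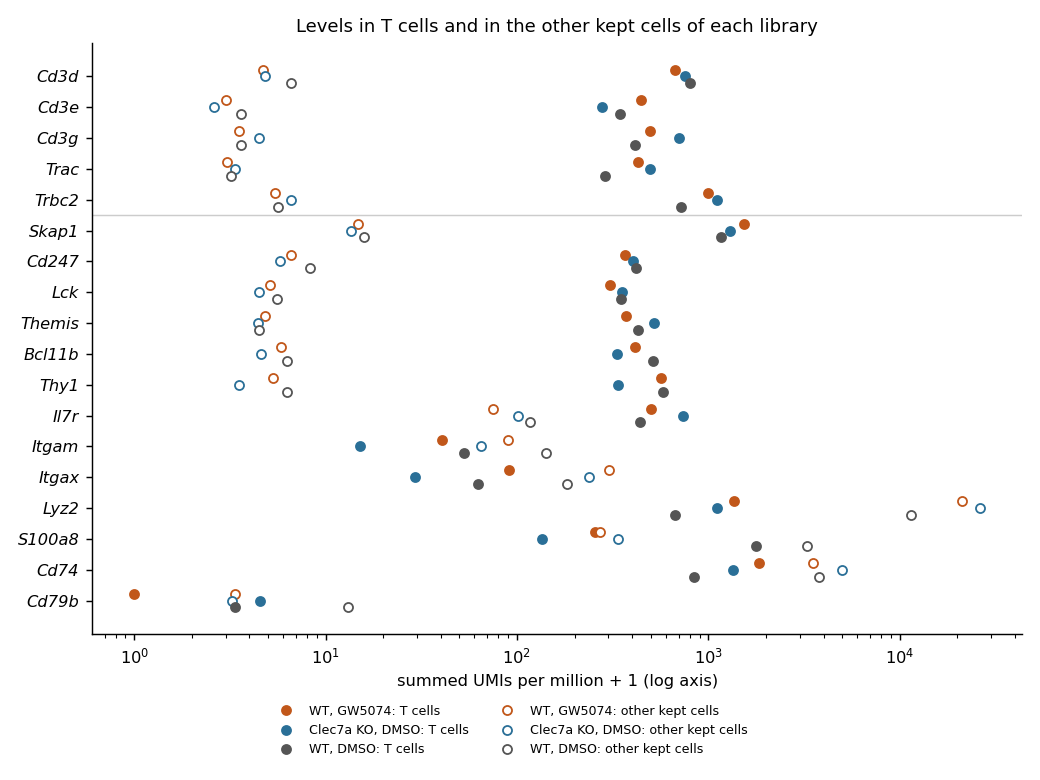
Summed level of each gene in T cells (filled points) and in the other kept cells (open points), as CPM plus 1 on a log axis, for each of the 3 libraries. The 5 genes above the line chose the T cells. Skap1 lies between 1167 and 1538 CPM in T cells and between 12.5 and 14.95 CPM elsewhere, while Lyz2 and Cd74 are lower in T cells than in the other cells.

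The least certain members were those with exactly 2 UMIs over the 5 receptor genes, 81 of the GW5074, 51 of the KO and 86 of the WT DMSO T cells. Another 116, 63 and 123 cells met the other conditions but held only 1 such UMI. A UMI of Skap1, Cd247, Lck, Themis or Bcl11b was present in 96.3%, 90.2% and 94.2% of cells just inside the limit, and in 87.1%, 90.5% and 69.1% of those just outside it. Most cells just outside the limit thus held another T cell transcript, and the counts below do not cover every such cell.

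T cells made up 0.995% (0.854 to 1.15) of kept cells with GW5074, 1.87% (1.63 to 2.14) in the KO library and 1.999% (1.77 to 2.25) in the WT DMSO library. The GW5074 share was 2.01-fold lower than that of WT DMSO (interval 1.66 to 2.44), a log2 ratio of −1.01, and the KO share had a log2 ratio of −0.09 (−0.36 to 0.17). The GW5074 share stayed below that of WT DMSO in each of the 7 alternative settings run, with log2 ratios from −1.75 to −0.54. The Lyz2 limit alone left out 93 GW5074, 76 KO and 66 WT DMSO cells that met every other condition. No setting loosened that limit, so the share ratios without it were not measured. The KO ratio changed side: it was −0.73 with a Lyz2 limit of 0.1% and 0.42 after each cell was thinned to 500 UMIs. In the WT DMSO library, 254 B cells stood beside 269 T cells, against 53 B cells with GW5074 and 36 in the KO library.

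**Figure D2:**
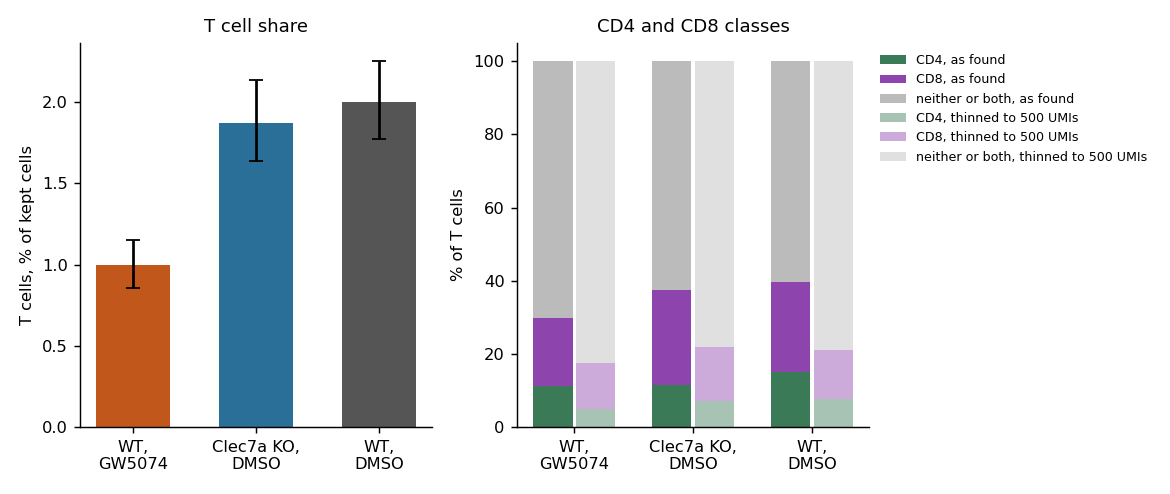
Left, T cells as a percentage of kept cells in each library, with exact binomial intervals as error bars, from 0.995% with GW5074 to 1.999% in WT DMSO. Right, the makeup of T cells by CD4 and CD8 transcripts, as found and after thinning each cell to 500 UMIs. Most T cells showed neither, and that share grew on thinning.

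Ccl5 and genes of MHC class II varied most among the T cells. Variation was measured as the variance of Pearson residuals, which is near 1 where a gene varies only by counting, over 1413 genes with a median of 0.987. The gene with the highest value in its lowest library was Ccl5, a chemokine of effector T cells, at 6.40 with GW5074, 13.5 in KO and 9.96 in WT DMSO. Next came Cd74 and H2-Ab1, H2-Aa and H2-Eb1, which serve peptide presentation on MHC class II and are hardly used by mouse T cells, with lowest values of 5.13, 3.86, 3.63 and 3.39. Cst3, a protease inhibitor of myeloid cells, St6galnac3, a sialyltransferase, Malat1, a nuclear noncoding RNA, and Tmsb4x, an actin-binding protein, followed at 3.15, 3.06, 2.81 and 2.76. S100a4, a calcium-binding protein of activated and memory T cells, reached 2.75, and Ikzf2, which encodes Helios, a transcription factor of regulatory T cells, reached 2.60. Ccl5 and the MHC class II genes stood among the most variable genes in every library. At least 1 UMI of H2-Aa, H2-Ab1, H2-Eb1 or Cd74 was seen in 262 of 664 T cells (39.5%), and in 53 of 53, 36 of 36 and 253 of 254 B cells. Their part in the variation, as RNA from other cells or from doublets, was not tested.

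Cd4 (mm10 chromosome 6, 124864692 to 124888221, minus strand) separated T cells from Cd8a (chromosome 6, 71373427 to 71379173, plus strand) and Cd8b1 (chromosome 6, 71322788 to 71337494, plus strand). With 1 or more UMIs of Cd4 and none of Cd8a or Cd8b1, 20 GW5074, 25 KO and 41 WT DMSO T cells were CD4 cells. With the reverse pattern, 33, 57 and 66 were CD8 cells. Only 1 cell, in the KO library, had both. The remaining 124, 135 and 162 cells showed neither, and they were the shallowest, with medians of 733, 1011 and 1116.5 UMIs, against 790.5, 1055 and 1323 in CD4 and 921, 1557 and 1642 in CD8 cells. No B cell of the 343 had a Cd4 UMI, and 1 had a Cd8a or Cd8b1 UMI, so these transcripts were nearly absent from cells that should lack them.

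CD4 cells made up 37.7% (24.8 to 52.1) of CD4 and CD8 cells together with GW5074, 30.5% (20.8 to 41.6) in KO and 38.3% (29.1 to 48.2) in WT DMSO. Thinned to 500 UMIs, the shares were 29.0%, 33.3% and 36.8%. The intervals overlapped in every pair of libraries, so a difference in the balance of CD4 and CD8 cells was not detectable at this number of cells. More cells were called CD8 than CD4 in all 3 libraries, but CD8 cells were found by 2 genes and CD4 cells by 1. Gene by gene after thinning, Cd4 was seen in 9 GW5074, 16 KO and 21 WT DMSO T cells, Cd8a in 11, 18 and 20, and Cd8b1 in 12, 18 and 21. By class, the thinned counts were 9, 16 and 21 CD4 cells and 22, 32 and 36 CD8 cells. The part of detection in the order of the classes was not tested.

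Genes of cytotoxic and effector cells were lower in CD4 than in CD8 cells, while CD4 cells had more of the factors Maf, Ikzf2 and Runx1 and of the costimulator Icos. The test was edgeR's quasi-likelihood test on UMIs summed over CD4 and over CD8 cells of each library, with the library as a block (3 pairs) and Benjamini-Hochberg adjustment. Of 892 genes tested without Cd4, Cd8a and Cd8b1, 25 were higher in CD4 cells (2.8%) and 17 were lower in CD4 cells (1.91%), 42 in either direction (4.71%), at an adjusted p below 0.05. The median log2 ratio over all of them was 0.05. The 3 pairs come from 3 conditions and are not replicates of 1 condition.

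Of 18 cytotoxic effector genes 3 were abundant enough to test, and all 3 were lower in CD4 cells. They are the members that are high in CD8 cells, so this count is a description. Nkg7, a protein of cytotoxic granules (chromosome 7, 43437073 to 43438249), stood at 51.5 CPM in GW5074, 32.9 CPM in KO and 83.0 CPM in WT DMSO CD4 cells, against 1042, 1400.0 and 1502 CPM in CD8 cells. Its log2 ratio was −4.43 (SE 0.35, edgeR adjusted p = 6.6e-06). Ccl5 was at 0, 32.9 and 512 CPM in CD4 cells, against 2804, 5806 and 3911 CPM in CD8 cells, with a log2 ratio of −4.04 (SE 0.46, edgeR adjusted p = 1.0e-04). Ctsw, a protease of cytotoxic lymphocytes, was at 206, 0 and 27.7 CPM in CD4 cells, against 294, 326 and 426 CPM in CD8 cells, a log2 ratio of −2.88 (edgeR adjusted p = 0.013). Ly6c2, a surface protein of memory CD8 T cells, had 0 UMIs in the 86 CD4 cells and 194 in the 156 CD8 cells. Set against a floor of 3 counts over all CD4 cells, it was at least 30.5-fold lower in CD4 cells. Reads of Ly6c2 may be shared with its near-identical neighbour Ly6c1, so its identity is uncertain.

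Granzymes were too sparse for the filter of the main test. Gzma had 0 UMIs in CD4 and 47 in CD8 cells, Gzmk 0 and 40, and Gzmb 0 and 21. All were called lower in CD4 cells with no filter, and with at least 20 UMIs, a setting added after seeing the data. Their UMIs lie in CD8 cells alone, so these calls are a description.

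Other genes lower in CD4 cells included Runx3, the transcription factor that establishes the CD8 lineage, at 0, 132 and 69.2 CPM in CD4 and 214, 543 and 294 CPM in CD8 cells (log2 ratio −2.25, edgeR adjusted p = 0.0083). Bcl2, which protects memory T cells from death, had a log2 ratio of −1.84, Epsti1, an interferon-induced gene, −1.85, Hcst, the signalling partner of the receptor NKG2D, −1.27, and H2-Q7, an MHC class I gene whose reads may be shared with its paralogs, −1.32. Gm44174, a predicted noncoding RNA between Cd8b1 and Cd8a (71353035 to 71373284, plus strand), had 0 UMIs in CD4 and 51 in CD8 cells. It ends just before Cd8a begins, so reads of the 2 genes may not be told apart.

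Genes higher in CD4 cells were led by Maf, a transcription factor of helper and regulatory T cells. It was at 360, 197 and 360 CPM in CD4 cells and at 0, 10.9 and 7.74 CPM in CD8 cells, with a log2 ratio of 4.96 (SE 0.57, edgeR adjusted p = 1.0e-04). Ikzf2 was at 772, 691 and 581 CPM in CD4 and at 0, 184 and 38.7 CPM in CD8 cells (log2 ratio 2.96, edgeR adjusted p = 0.0024). It was the only member of the regulatory T cell list abundant enough to test. Maf and Ikzf2 could pass the filter on low counts through CD4 cells alone, so nothing is read for the regulatory list as a whole. Icos was at 515, 494 and 360 CPM in CD4 and at 26.7, 76.0 and 69.7 CPM in CD8 cells (2.64, edgeR adjusted p = 0.0011). S100a4 was at 1389.7, 954 and 1536 CPM in CD4 and at 240, 119 and 441 CPM in CD8 cells (2.23, edgeR adjusted p = 1.4e-04). In all 4 of these genes every CD4 value lay above every CD8 value. They were picked from the called genes, and the share of all tested genes with such a gap was not counted. This separation is thus a description. Tbc1d4, a regulator of glucose uptake, had a log2 ratio of 2.49, Birc3, an NF-κB target that inhibits apoptosis, 2.17, Tox, a factor of chronically stimulated and helper T cells, 1.52, and Runx1 1.46. Junb and Nfkbia were 2 of 4 tested immediate early genes and were higher in CD4 cells, at 1.64 and 1.35, beside 2.8% of all genes. The list is too short to read anything from this count. Junb was not called with DESeq2 (adjusted p = 0.139).

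With 4.71% of all genes called, short lists may hold no call, and nothing is read from the following. None of 13 tested genes of the receptor complex and none of 6 tested genes of naive and recirculating T cells was called, with median log2 ratios of −0.07 and 0.01. Of 4 tested dendritic cell genes, H2-Eb1 was higher in CD4 cells at 1.34, and it was not called with no library block (edgeR adjusted p = 0.058) or with DESeq2 (adjusted p = 0.204). MHC class II transcripts were seen in 41 of 86 CD4 cells (47.7%) and 61 of 156 CD8 cells (39.1%), and the part of RNA from other cells in that ratio was not tested.

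Single libraries weighed on these calls. Of the 24 genes named by the rule, Ccl5, Ly6c2, Nkg7 and S100a4 were called without each library in turn. Without the KO library 14 were no longer called (adjusted p between 0.0893 and 0.204), among them Ctsw, Runx3, Bcl2, H2-Q7, Hcst and Junb. Without the WT DMSO library 10 of the 14 still tested were not called (0.0543 to 0.0964), among them Ikzf2 (0.077), Icos, Epsti1 and Bcl2, and Maf did not pass the filter on low counts. Without the GW5074 library 3 were lost (0.0818 to 0.135), namely Kmt2c, Hnrnpll and Ext1. Every one of them kept its direction. With DESeq2, 6 genes were higher and 10 lower in CD4 cells, 12 of them among the 42. Of the 24 named genes, 13 were given an adjusted p by DESeq2. Among those, 5 were not called (DESeq2 adjusted p between 0.0832 and 0.320), namely Znrf1, Junb, H2-Q7, Sidt1 and Hcst. Maf, Ctsw, Runx3, Birc3 and Tbc1d4 were given none, so DESeq2 made no call for them.

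**Figure D3:**
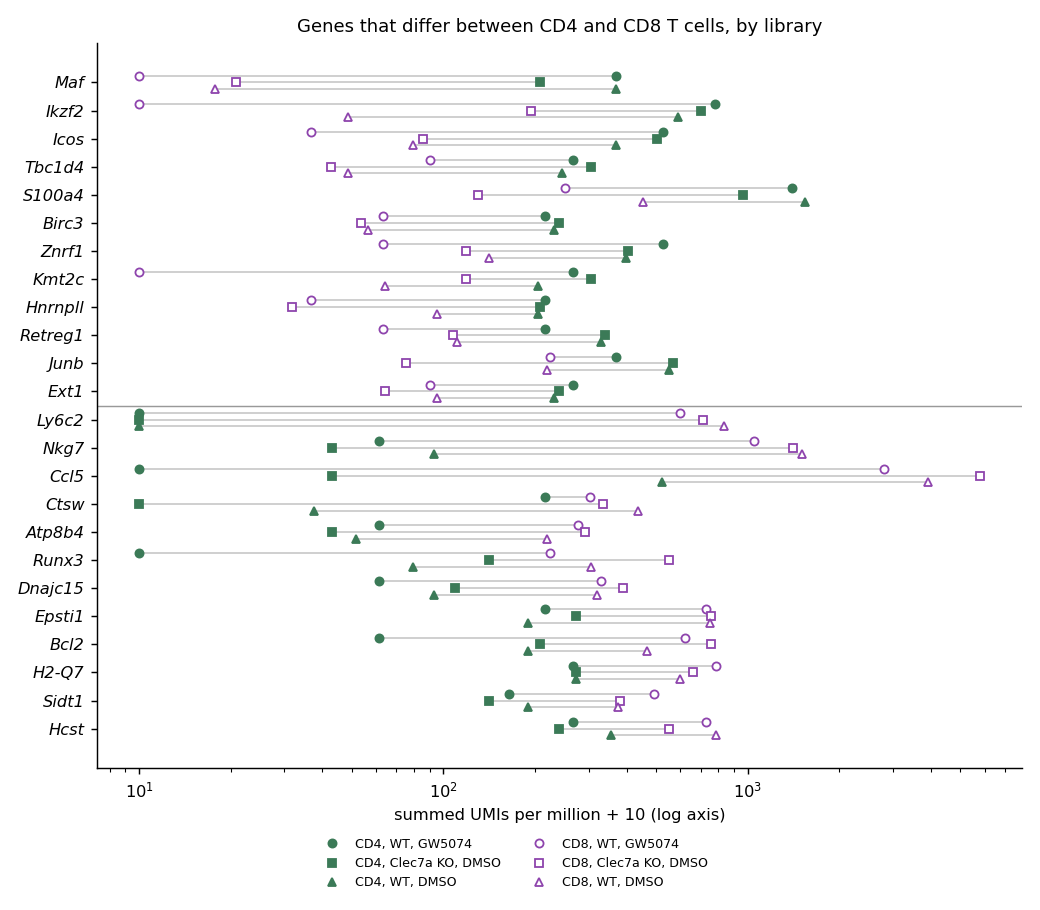
Summed level in CD4 cells (filled) and CD8 cells (open) of each library, as CPM plus 10 on a log axis, for the 12 highest and 12 lowest log2 ratios among called genes. Lines join both values of a library. Nkg7 lies between 32.9 and 83.0 CPM in CD4 cells and between 1042 and 1502 CPM in CD8 cells.

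An effector-type transcript, Ccl5 or Nkg7, was seen in 266 of 664 T cells (40.1%). The share was 12.8% of CD4 cells, 85.9% of CD8 cells and 28.7% of cells with neither. B cells showed it in 7.55% with GW5074, 5.56% in KO and 6.69% in WT DMSO, below the share in T cells of each library. By library it was 34.5% with GW5074, 38.5% in KO and 44.98% in WT DMSO, and 31.1%, 30.3% and 33.5% after thinning, when the order of the libraries was another. These cells also held 132 of the 135 Gzma UMIs, many of them in the 1 GW5074 cell with 86.1% of the 79 Gzma UMIs of its library, 49 of the 51 Gzmk UMIs and all 23 UMIs of Eomes, a transcription factor of cytotoxic T cells. They had Tbx21, the factor of type 1 responses, at 80.0 CPM, against 16.6 CPM in the 398 T cells without Ccl5 or Nkg7.

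T cells with γδ receptor transcripts (Trdc, Tcrg-C1, Tcrg-C2 or Tcrg-C4) numbered 11 of 177 with GW5074, 16 of 218 in KO and 12 of 269 in WT DMSO. The shares were 6.21% (3.14 to 10.8), 7.34% (4.25 to 11.6) and 4.46% (2.33 to 7.66), and they overlapped. Of these 39 cells, 34 had neither Cd4 nor Cd8 transcripts, 5 were CD8 cells and 0 of 86 CD4 cells were among them. A UMI of Trbc2 was seen in 18 of the 39 and one of Trac in 7, so some may carry an αβ receptor. Trbc2 was at 623 CPM in them and 911 CPM in the other T cells, and Trac at 199 and 391 CPM. In the pooled 39 cells, Cd163l1, a scavenger receptor of γδ T cells, was at 1395 CPM, against 17.8 CPM in the other 625 T cells. Blk, a kinase of γδ T cells that make interleukin 17, was at 498 CPM against 2.38 CPM. Zbtb16, which encodes PLZF, the factor of innate-like T cells, was at 374 CPM against 4.75 CPM, and Il23r, the receptor for interleukin 23, at 374 CPM against 14.3 CPM. Each of these 4 genes was higher in the cells with γδ receptor transcripts in all 3 libraries. Trdv4, a δ chain segment, had 12 UMIs in 8 of these cells and 0 UMIs in the other T cells.

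Foxp3, the transcription factor of regulatory T cells (chromosome X, 7573644 to 7595245), was seen in 7 GW5074, 9 KO and 12 WT DMSO T cells, and in no B cell. The shares were 3.95%, 4.13% and 4.46%, and their intervals overlapped. Of the 28 cells, 9 were CD4 cells, 18 had neither coreceptor and 0 of 156 CD8 cells were among them. In these 28 cells Ctla4, an inhibitory receptor, was at 909 CPM, against 126 CPM in the other 636 T cells. Ikzf2 was at 1180.1 CPM against 317 CPM, Icos at 832 against 234 CPM, and Tnfrsf18, which encodes GITR, at 522 against 102 CPM. Il2ra, the high-affinity chain of the interleukin 2 receptor, was at 213 against 43.4 CPM, and Il1rl1, the receptor for interleukin 33, at 232 against 39.8 CPM. These 6 genes were higher in the Foxp3 cells in all 3 libraries. Cd74 was at 5088 against 963 CPM, from 11 of the 28 cells, and its part in these differences was not tested.

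Transcripts of several interleukins, Ifng and Tnf were at or near 0, while Tgfb1 and Ltb were measured in every library. Il5, Il13, Il21 and Il17f had 0 UMIs in all libraries. Il17a had 0, 2 and 3 UMIs with GW5074, in KO and in WT DMSO, Ifng had 0, 2 and 2, Il4 had 0, 1 and 1, Il2 had 0, 3 and 5, and Tnf had 0, 3 and 4. At these depths the level of a gene with no UMI is bounded only at 16.9 CPM with GW5074, 10.6 CPM in KO and 7.10 CPM in WT DMSO. Tgfb1, the cytokine most tied to fibrosis, was at 141, 131 and 85.2 CPM, and the other kept cells had 161, 163 and 127 CPM. Ltb, which encodes lymphotoxin β, was at 248, 365 and 303 CPM in T cells and at 10.5, 12.1 and 27.2 CPM in the other cells. Among transcription factors of helper subsets, Gata3 was at 135, 85.2 and 78.1 CPM and Tbx21 at 39.4, 31.9 and 56.8 CPM.

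GW5074 T cells were set against WT DMSO T cells by the ratio of summed CPM. A gene was called higher or lower when the ratio was at least 1.5-fold and its interval excluded 1. Genes needed 100 CPM or more in either library and a total of 30 UMIs to be tested. Of 2156 such genes, 111 were higher (5.15%) and 77 lower (3.57%) with GW5074, 188 in either direction (8.72%), and the median log2 ratio was 0.02. The split turned with the scaling: with TMM factors, which move all log2 ratios by −0.07, 75 were higher and 112 lower. In the lists of T cell function the shares called were near the 8.72% of all genes, or the lists were too short to tell. Of 18 tested genes of the receptor complex and its signalling, Cd6 was called (264.8 against 168 CPM, log2 ratio 0.66), and the median was −0.11. None of 8 tested genes of naive and recirculating T cells and none of 5 of tissue residency was called. Of 6 tested cytotoxic genes, Gzma was called, and 1 cell held 86.1% of its UMIs with GW5074. Nkg7 was at 501 CPM with GW5074 and 658 CPM in WT DMSO, and Ccl5 at 1313 and 1782 CPM, both short of the fold. No member of the regulatory T cell list was called among 5 tested.

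Several genes of antigen presentation and of macrophages were higher with GW5074. All 5 tested dendritic cell genes were higher, beside 5.15% of all genes, with a median log2 ratio of 1.14. H2-Ab1 stood at 1352 CPM with GW5074 and 492 CPM in WT DMSO, and Cd74 at 1837 and 845 CPM. H2-Aa was at 963 and 438 CPM, and H2-Eb1 at 941 and 436 CPM. Ccl17, a chemokine of dendritic cells, was at 192 and 49.7 CPM, so it passed the limit of 100 CPM through GW5074 alone. These UMIs came from few cells, Cd74 from 35 of 177 and H2-Ab1 from 28. By class, Cd74 was lower with GW5074 in CD4 cells, at 978 and 2090 CPM (log2 ratio −1.10). It was higher in CD8 cells (1.53) and in cells with neither coreceptor (1.73). Those of the largest ratios with a known role in these cells were H2-DMa, Ciita, Irf5, Axl and Cxcl16. H2-DMa loads peptides on MHC class II (180.3 against 49.7 CPM, log2 ratio 1.86). Ciita is the master regulator of MHC class II genes (163 against 49.7 CPM, 1.72). Irf5 is a factor of myeloid cells (1.84), Axl a receptor for dying cells on macrophages (1.64) and Cxcl16 the ligand of CXCR6 (1.74). Each of these 5 reached 100 CPM with GW5074 and not in WT DMSO, so their ratios are a description and no support. Of 11 tested macrophage genes 7 were higher, beside 5.15% of all genes, and Chil3 was lower. Mrc1, a mannose receptor of macrophages, had a log2 ratio of 1.38 and Fabp5, a fatty acid carrier, 1.22. One of the 7 was Lyz2, which the choice of cells used, so its ratio is no support. The summed macrophage list, Lyz2 included, was at 7915 CPM with GW5074 and 5714 CPM in WT DMSO. Lyz2 was higher in B cells of the GW5074 library as well (1361 against 648 CPM), which were chosen under the same Lyz2 limit. The part of RNA from other cells in these ratios was not tested.

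Neutrophil genes were lower with GW5074, all 5 of 5 tested, beside 3.57% of all genes. The list summed to 546 CPM with GW5074 and 3484 CPM in WT DMSO. Members could thus pass the limit of 100 CPM through WT DMSO alone, so this count is a description and no support. S100a8 was at 254 CPM with GW5074 and 1778 CPM in WT DMSO (log2 ratio −2.81), and S100a9 at 118 and 1072 CPM (−3.18). A UMI of either was seen in 15 of 177 GW5074 T cells (8.47%) and in 130 of 269 WT DMSO T cells (48.3%). B cells of the same libraries showed it in 17.0% and 59.1%, and had S100a8 at 2160.2 and 3556 CPM, above the T cells of either library. The other kept cells had S100a8 at 271 and 3272 CPM. The part of RNA from neutrophils was not tested.

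Among genes lower with GW5074 were some induced by stress and kinase signals. Ier3, an early response gene downstream of ERK, had 0 UMIs in GW5074 T cells and 50 UMIs (118 CPM) in 26 WT DMSO T cells, and against the floor of 3 counts in the GW5074 library it was at least 7.003-fold lower. The other kept cells had 31.5 CPM with GW5074 and 158 CPM in WT DMSO, so Ier3 was lower there too, while B cells had 255 and 207 CPM. Ier3 was 1 of 2 tested genes of the MEK-ERK feedback list and the one called, too short a list to set beside 3.57% of all genes. Dusp1, a phosphatase that dampens MAP kinases, was at 39.4 and 111 CPM (log2 ratio −1.50, −2.89 to −0.34), and Cebpb, a factor of inflammatory and myeloid genes, at 33.8 and 102 CPM (−1.59). Fkbp5, which glucocorticoids induce, was at 62.0 and 163 CPM (−1.40), from 11 and 46 cells. Without T cells that held S100a8 or S100a9, Fkbp5 had a log2 ratio of −0.79 and was not called. Ly6c2 was at 192 and 405 CPM (−1.08). Of 10 tested immediate early genes Jund was higher, at 304 and 175 CPM, and Ier3 and Dusp1 were lower, with a median of −0.25. Over all genes 5.15% were higher and 3.57% lower, with a median of 0.02. Ier3, Dusp1, Cebpb and Fkbp5 reached the limit of 100 CPM in WT DMSO and not with GW5074. The count and these ratios are thus a description and no support. Mucl1 and Kcnip4, the highest ratios, rested on 1 and 3 GW5074 cells.

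KO T cells were compared with WT DMSO T cells in the same way, and this comparison shares the WT DMSO library with that of GW5074. Of 2014 genes tested, 115 were higher (5.71%) and 240 lower (11.9%) in KO T cells, 355 in either direction (17.6%), with a median log2 ratio of −0.10. With TMM factors, which move all log2 ratios by 0.11, 192 were higher and 165 lower, and with totals without mitochondrial, ribosomal and other-cell genes 174 were higher and 170 lower. The balance of directions thus rests on the scaling.

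Ly6a, Il7r and Bach2 were among the genes higher in KO T cells. Ly6a, which encodes Sca-1 and is induced by interferons (chromosome 15, 74994877 to 74998031), was at 659.9 CPM in KO and 320 CPM in WT DMSO T cells, a log2 ratio of 1.05 (0.72 to 1.38). In CD4 cells Ly6a stood at 1711 and 332 CPM (2.37, 1.64 to 3.13), in CD8 cells at 619 and 426 CPM (0.54, −0.02 to 1.10) and in cells with neither at 484 and 253 CPM (0.93). Il7r, the receptor for the survival cytokine interleukin 7, was at 734 CPM in KO and 438 CPM in WT DMSO T cells (0.75, 0.45 to 1.04), and it was higher in CD4 (0.998), CD8 (0.83) and other T cells (0.67) alike. Bach2, a factor that keeps T cells from effector fate, was at 522 and 320 CPM (0.71). Il7r and Bach2 were the only genes called of 8 tested in the naive and recirculating list, with a median of 0.38 against −0.10 over all genes. Runx3 was at 341 and 189 CPM (0.85). Of 20 tested receptor complex genes, Cd96 and Txk were higher, at 0.88 and 0.86, and Thy1 and Bcl11b lower, at −0.78 and −0.63. Over all genes 17.6% were called in either direction, and nothing is read from the counts of these 2 lists.

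Ubb and Cmss1 were higher in KO T cells and in the other kept cells of that library too. Ubb, which encodes ubiquitin, was at 1206 CPM in KO and 533 CPM in WT DMSO T cells (log2 ratio 1.18), and at 945 and 553 CPM in the other kept cells. Cmss1 was at 1252 and 471 CPM (1.41), and at 370 and 257 CPM in the other cells. Gimap9 was higher in KO T cells and nearly absent elsewhere. Gimap9, one of a family of GTPases that act in lymphocyte survival, was at 149 and 66.3 CPM (1.17), and at 1.71 and 2.92 CPM in the other kept cells. Ribosomal protein genes were higher in 19 of 82 tested and lower in none, with a median log2 ratio of 0.34. Over all genes 5.71% were higher and 11.9% lower, with a median of −0.10. Of 9 tested type I interferon genes Ly6a and Ifi206 were higher, too short a list to set against that share.

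Some genes of activation and division were lower in KO T cells. Ier3 was at 14.2 CPM in KO and 118 CPM in WT DMSO T cells (log2 ratio −3.06), and Dusp1 at 14.2 and 111 CPM (−2.97). The other kept cells had Ier3 at 43.2 and 158 CPM and Dusp1 at 73.8 and 182 CPM. B cells had Ier3 at 334 and 207 CPM, with the higher level in KO. Of 10 tested immediate early genes 6 were lower and none higher, with a median of −0.88, beside 11.9% lower and a median of −0.10 over all genes. Ier3, Dusp1, Klf6, Egr1 and Ier2 reached the limit of 100 CPM in WT DMSO and not in KO, so this count is a description and no support. Junb was at 213 and 379 CPM (−0.83). By class it was at 559 and 540 CPM in CD4 cells (0.05, −0.86 to 0.91), 65.1 and 209 CPM in CD8 cells (−1.68) and 236 and 425 CPM in cells with neither (−0.85). Klf6 was at 81.6 and 173 CPM (−1.08), and Egr1 and Ier2 had log2 ratios of −0.94 and −0.92. S100a4 was at 564 and 1042 CPM (−0.88). Cxcr4, a chemokine receptor that guides cells to CXCL12, was at 35.5 and 114 CPM (−1.68). Ccl4, a chemokine of activated T cells, had the lowest ratio, with 3 UMIs in KO and 68 UMIs in 13 WT DMSO T cells, 1 of which held 38.2% of them. Il18rap, a chain of the interleukin 18 receptor, was at 31.9 and 130 CPM (−2.03).

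Of 16 cell cycle genes 3 were abundant enough to test, and all 3 were lower in KO T cells, beside 11.9% of all genes. Hmgb2 was at 302 and 670 CPM (−1.15), Stmn1, a microtubule regulator, at 53.2 and 149 CPM (−1.49), and Tubb5 at 220.0 and 336 CPM (−0.61). Stmn1 reached 100 CPM in WT DMSO and not in KO, and the TMM shift of 0.11 takes Tubb5 under the 1.5-fold limit. In CD8 cells Hmgb2 was at 163 and 1007 CPM (−2.63, −3.51 to −1.85), and in cells with neither coreceptor at 407 and 507 CPM (−0.31, −0.78 to 0.14). The difference between these classes was not tested. A UMI of Mki67 or Top2a, genes of dividing cells, was seen in 11 of 177 GW5074 T cells (6.21%, 3.14 to 10.8), 6 of 218 KO T cells (2.75%, 1.02 to 5.89) and 22 of 269 WT DMSO T cells (8.18%, 5.20 to 12.1). Thinned to 500 UMIs, the shares were 3.39%, 1.38% and 3.72%, with intervals that overlapped. B cells showed it in 3 of 53, 0 of 36 and 9 of 254 cells. Of the CD8 cells, 1 of 33 with GW5074, 2 of 57 in KO and 12 of 66 in WT DMSO held such a UMI.

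Of 6 tested cytotoxic genes, Ccl4 was the only one called in KO T cells. Ccl5 was at 2395 CPM in KO and 1782 CPM in WT DMSO T cells, under the fold. In CD8 cells it was at 5806 and 3911 CPM (log2 ratio 0.57), and in CD4 cells at 32.9 and 512 CPM from 1 and 37 UMIs. Nkg7 was at 589 and 658 CPM. Neutrophil genes were lower in 5 of 5 tested, beside 11.9% of all genes, with S100a8 at 135 and 1778 CPM (−3.72). The neutrophil list summed to 291 CPM in KO and 3484 CPM in WT DMSO. Members could thus pass the limit of 100 CPM through WT DMSO alone, so this count is a description and no support. Fkbp5 was at 63.9 and 163 CPM (−1.35). As with GW5074, Fkbp5 was not called without T cells that held S100a8 or S100a9 (−0.83). The macrophage list was at 5826 and 5714 CPM in sum, with 3 genes higher and 3 lower of 10 tested. The 3 higher ones were Fabp5, Ftl1 and Lyz2, the last of which the choice of cells used. The part of RNA from other cells in these ratios was not tested.

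**Figure D4:**
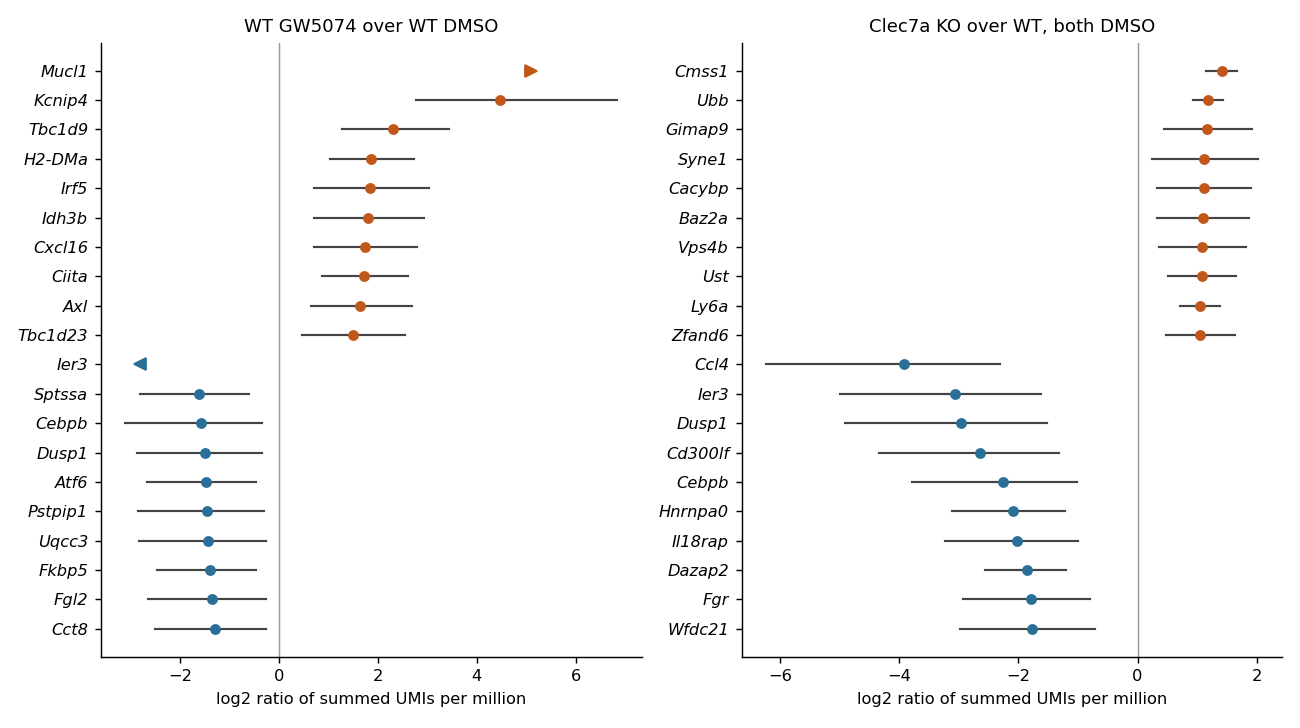
Log2 ratio of summed CPM in T cells, GW5074 over DMSO in WT on the left and KO over WT under DMSO on the right, for the 10 highest and 10 lowest called genes of each comparison. Bars are intervals for counting error, and triangles mark bounds against 3 counts where 1 library had no UMI. Cmss1 and Ubb have the narrowest intervals in the KO comparison.

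**Figure D5:**
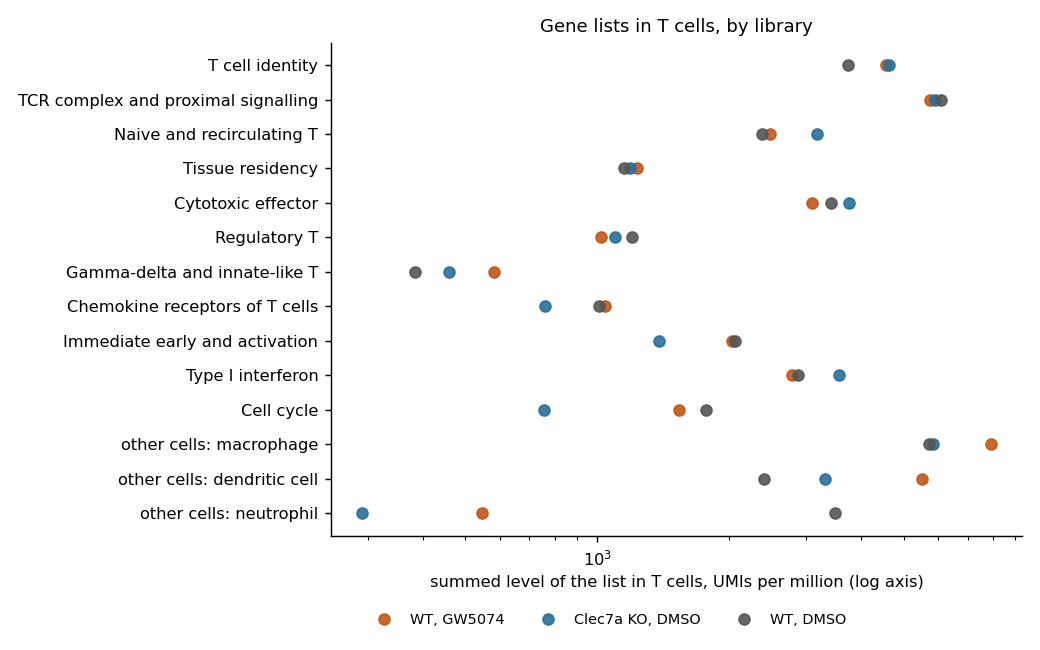
Summed level of each gene list in T cells, as CPM on a log axis, with 1 point per library. The cell cycle list is at 756 CPM in KO and 1773 CPM in WT DMSO T cells, and the neutrophil list at 546 CPM with GW5074, 291 CPM in KO and 3484 CPM in WT DMSO T cells.

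Summed over all members, the lists of T cell function had these levels in the 3 libraries. The naive and recirculating list was at 2479 CPM with GW5074, 3176 CPM in KO and 2372 CPM in WT DMSO T cells. The cytotoxic list was at 3082, 3761 and 3413 CPM, the regulatory list at 1019.7, 1099.9 and 1202 CPM and the residency list at 1234, 1185 and 1153 CPM. The immediate early list was at 2034, 1380.2 and 2059 CPM, lowest in KO. The neutrophil list was at 546, 291 and 3484 CPM, the dendritic cell list at 5515, 3314 and 2405 CPM and the cell cycle list at 1532, 756 and 1773 CPM.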

How the data were processed

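Each matrix held UMI counts, deposited by the authors as whole numbers per gene and cell barcode with no normalization. Cell Ranger 2.1.1 and mm10 are named in the submitters' processing notes, and per the labels' protocols libraries were 3′ libraries made on a SeekOne chip, while another label names 10× Genomics. The lowest barcode had 500 UMIs in each matrix, so shallow T cells were missing before any filter. The T cell rule and the gene lists (29 lists, 354 of 358 genes measured) were chosen with earlier results of these data known. T cells with 1 UMI or more of a coreceptor were split into CD4 and CD8 cells. UMIs were summed per library and class. CD4 and CD8 sums were compared with edgeR 4.0.16 (TMM, filterByExpr, quasi-likelihood, library as a block, since both sums of a library come from the same pool), with DESeq2 1.42.0 as an alternative, in R 4.3.3. Sums of different libraries were compared by the ratio of CPM with exact conditional binomial intervals, and shares by Clopper-Pearson intervals. Cells are not replicates, so nothing was tested between libraries. Counts of 0 were given bounds at 3 counts. Python 3.11.15, numpy 2.4.6, scipy 1.17.1 and pandas 2.3.3 were used, and the scripts were checked on simulated counts. B cells had at least 2 UMIs over Cd79a, Cd79b and Ms4a1 and none of CD3. Positions came from GENCODE (mm10).

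Named genes were the 20 highest over other kept cells, the 12 highest and 12 lowest between CD4 and CD8 cells, the 10 highest and 10 lowest of each library comparison, the 15 most variable, up to 6 members per list, and Fkbp5, Klhl6, Clec7a, Itgax and Itgam. Mitochondrial, ribosomal, immunoglobulin, receptor segment, predicted and sex-linked genes were left out of naming. The selection printed from these, and genes described by class, by gated cells or singly outside this rule (Gm44174, Runx1, Tox, Nfkbia, granzymes and cytokines among them), were chosen after their values were seen.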

Additional observations from a re-analysis of the deposited data

Results flagged for a closer look

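In 4 genes the ratio between libraries was called in opposite directions in CD4 and in CD8 T cells. The number of genes compared in both classes is not set beside this count, so nothing is read from the count. With GW5074, Cd74, the invariant chain of MHC class II, had a log2 ratio over WT DMSO of −1.10 in CD4 cells (−1.87 to −0.40) and 1.53 in CD8 cells (0.99 to 2.06). Cst3, a protease inhibitor abundant in dendritic cells and macrophages, had −2.50 in CD4 cells and 1.32 in CD8 cells, and Ubl5, a ubiquitin-like protein, 1.34 in CD4 cells and −1.30 in CD8 cells. In the KO comparison H2-Aa had −1.26 in CD4 cells and 0.86 in CD8 cells. In each case the difference between the classes was not tested. The CD4 cells with GW5074 numbered 20, against 41 in WT DMSO, and Cd74 had 19 UMIs in them, against 151. Of these 4 genes Cd74, Cst3 and H2-Aa are hardly used by mouse T cells and are also high in the other kept cells. The part of RNA from those cells was not tested.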

How the results depend on the processing

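Numbers of cells limit these results: 20 to 41 CD4 cells and 33 to 66 CD8 cells per library, 1 library per group, and a depth at which 421 of 664 T cells showed no coreceptor. Causes of the shifts below were not tested.

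The log2 ratio of the T cell share, −1.01 with GW5074, was −1.33 with at least 3 receptor UMIs, −1.75 with Lyz2 under 0.1%, −0.54 after thinning and −1.32 without cells of 2% S100a8 and S100a9 in the denominator. For KO, −0.09 became −0.73 with the Lyz2 limit, 0.42 after thinning and −0.40 with that denominator. The CD4 share moved by less than its interval in every setting run.

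Between CD4 and CD8 cells, 25 genes were higher and 17 lower in CD4 cells. The counts were 6 and 10 with DESeq2, 25 and 73 with no filter, 51 and 62 with at least 20 UMIs (added after seeing the data), 1 and 1 with 2 UMIs for the split, 13 and 8 with at least 3 receptor UMIs, 11 and 7 with Lyz2 under 0.1%, 39 and 27 with limits of 300 genes and 10% mitochondrial UMIs, and 43 and 51 without the tenth with most UMIs. Leaving out each library in turn gave 2 to 49 higher and 6 to 26 lower. The library block pairs sums of 1 pool. With no replicate block 13 were higher and 11 lower, all 24 among the 42, and of the 24 genes named by the rule Kmt2c, Hnrnpll, Sidt1 and Hcst were not called.

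With GW5074, 111 higher and 77 lower genes became 20 and 26 in CD4 cells only, 27 and 49 in CD8 cells only, and 128 lower with at least 50 CPM and 20 UMIs. In KO, 115 higher and 240 lower became 55 and 33 in CD4 cells, 124 lower in CD8 cells, 181 and 401 with at least 50 CPM and 20 UMIs, 192 higher with TMM and 174 with totals without mitochondrial, ribosomal and other-cell genes. Ccl5, higher in KO T cells but under the fold, was lower in CD4 cells only (−3.96). Klhl6 was not called without T cells with S100a8 or S100a9 (−0.21 with GW5074, −0.40 in KO). Leaving out those cells, and leaving out shared barcodes, were settings chosen after seeing the data. Dusp1 with GW5074 was not called with at least 3 receptor UMIs (−1.16) or with Lyz2 under 0.1% (−1.55).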

Other observations

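The 39 T cells with a UMI of Mki67 or Top2a had Hmgb2 at 2322 CPM, against 315 CPM in the other 625 T cells, Stmn1 at 778 against 32.9 CPM, and Pclaf, a factor bound to the replication clamp, at 526 against 10.1 CPM. Nkg7 was at 1379.9 against 515 CPM in them, and higher in all 3 libraries. Cd8a was at 241 against 167 CPM, higher in 2 of the 3 libraries. These genes were chosen after their values were seen.

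Klhl6, an adaptor of ubiquitin ligases in lymphocytes, was at 163 CPM in GW5074 T cells, 159.7 CPM in KO and 303 CPM in WT DMSO T cells. B cells had it at 136, 245 and 331 CPM and the other kept cells at 55.8, 63.6 and 226 CPM. Itgal, the CD11a chain through which T cells bind to vessels, was at 338 CPM with GW5074, 181 CPM in KO and 272 CPM in WT DMSO T cells, above Itgam and Itgax in every library.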
